A study of Mus musculus with 2 samples.

Results

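The transcripts examined were 7 cyclins and 3 cyclin-dependent kinases. They were the D cyclins Ccnd1, Ccnd2 and Ccnd3, the E cyclins Ccne1 and Ccne2, the A cyclin Ccna2, the B cyclin Ccnb1, and the interphase kinases Cdk2, Cdk4 and Cdk6. Members were the genes of the count table whose name equalled one of these 10 names, of 22556 genes listed. The libraries came from mouse embryonic stem cells (mESCs) of the line iXist-ChrX-Dom, a female line of Dom/129S x Cast genotype in which a TetOn promoter stands in for the native Xist promoter on the Dom/129S allele. The line is 1 clone, it was grown with serum and LIF, and it was harvested at 0 h without doxycycline after fibroblast feeders inactivated with mitomycin C had been taken off by pre-plating. The series holds 1 group with 2 replicates and so no contrast between treatments. Whether the replicates were separate cultures is not stated, and the p-values below cover counting error between 2 libraries, not conditions.

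Cyclins are the regulatory partners that switch cyclin-dependent kinases on, and their rise and fall orders the cell cycle. D cyclins pair with Cdk4 or Cdk6 and E cyclins with Cdk2 to phosphorylate the retinoblastoma protein and carry cells from G1 into S phase. Cyclin A2 acts through S phase and G2, and cyclin B1 with Cdk1 drives entry into mitosis. Mouse embryonic stem cells are known for a short G1 phase and for rapid division.

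All 10 members were detected in each replicate, with 0.140% (replicate 1) and 0.136% (replicate 2) of each library's counts between them. Levels are given as transcripts per 1000000 (TPM), that is, counts divided by the length of the annotated exons and scaled to the library. A gene was called expressed at a mean of at least 1 TPM, which 12275 genes reached, with a median of 18.4 TPM among them. Of the members, 9 reached 1 TPM, 7 reached 10 TPM and 3 reached 100 TPM. The mitotic and S phase cyclins Ccnb1 and Ccna2 were the highest, the E cyclins, Cdk2 and Cdk4 lay in the middle, and Ccnd3, Cdk6 and above all Ccnd2 were low. In a bulk library, fewer cells with a transcript and less of it per cell cannot be told apart.

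**Figure D1:**
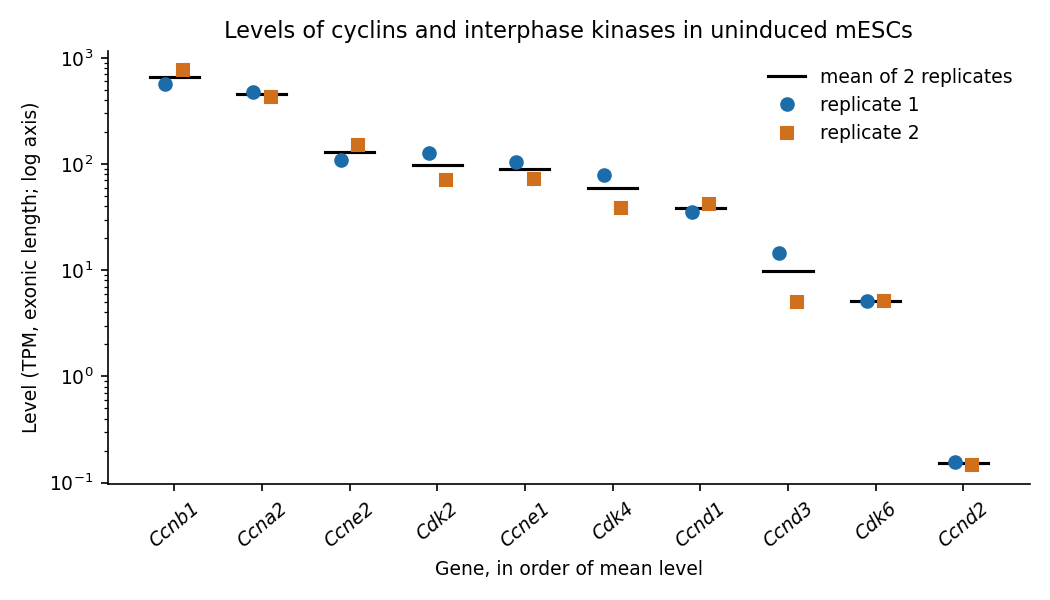
Level of each member (TPM per exonic length, log axis) in replicate 1 (circles) and replicate 2 (squares), with a line at the mean, genes ordered by mean. Levels ran from 664 TPM for Ccnb1 to 0.153 TPM for Ccnd2, and the replicates of Ccnd3, Cdk2 and Cdk4 lay visibly apart.

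The D cyclins were carried by Ccnd1. Ccnd1 encodes cyclin D1, the D cyclin most directly induced by growth factor signals, and lies on chromosome 7 at 144929930 to 144939925, minus strand (mm10, as for all positions of genes). Its 996 and 951 counts in replicates 1 and 2 gave 35.3 and 41.9 TPM (38.6 ± 4.68 TPM, SD, n = 2), above 64.8% of the expressed genes. Ccnd3 (chromosome 17, 47505050 to 47599688, plus strand) encodes cyclin D3, which is prominent in lymphoid cells. It had 270 and 74 counts, or 14.6 and 4.98 TPM (9.79 ± 6.81 TPM, SD, n = 2). Its spread was large against its mean, and replicate 1 was the higher library.

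Ccnd2 (chromosome 6, 127125708 to 127151048, minus strand), which encodes cyclin D2, was close to the limit of detection. Its 8 counts (replicate 1) and 6 counts (replicate 2) gave 0.158 and 0.147 TPM (0.153 ± 0.00749 TPM, SD, n = 2). These are 0.337 and 0.296 counts per 1000000 (CPM), against the 0.126 and 0.148 CPM that a count of 0 allows (3 counts). Such floors, like the 95% intervals below, cover counting error only, since fragments without molecular identifiers are not independent molecules. The 95% interval of Ccnd2 was 0.146 to 0.665 CPM in replicate 1 and 0.109 to 0.644 CPM in replicate 2, where it reached below the floor, and Ccnd2 was the one member below 1 TPM.

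Within a library the balance of the D cyclins does not depend on depth. Per exonic length, Ccnd1 exceeded Ccnd2 by 223-fold in replicate 1 (95% interval 113 to 519, exact Clopper-Pearson on the share of the pair's counts) and by 284-fold in replicate 2 (130 to 777). The ratio of Ccnd1 to Ccnd3 was 2.41 (2.11 to 2.77) in replicate 1 and 8.41 (6.63 to 10.8) in replicate 2. The order Ccnd1, Ccnd3, Ccnd2 therefore stood in both libraries, but the intervals of the ratio of Ccnd1 to Ccnd3 did not overlap. The summed D cyclin level was 50.0 TPM in replicate 1 and 47.0 TPM in replicate 2. Ccnd1 made up 70.5% and 89.1% of it, Ccnd3 29.2% and 10.6%, and Ccnd2 0.315% and 0.313%. These shares rest on the exonic length. With the deposited length Ccnd3 had a mean of 1.31 TPM beside 75.7 TPM for Ccnd1.

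The E cyclins, the Cdk2 partners of the G1 to S transition, were both well expressed. Ccne1 (chromosome 7, 38097983 to 38107490, minus strand) had 1584 and 885 counts, or 105 and 72.9 TPM (88.9 ± 22.6 TPM, SD, n = 2). Ccne2 (chromosome 4, 11191350 to 11204779, plus strand) had 2656 and 2940 counts, or 110 and 151 TPM (131 ± 29.3 TPM, SD, n = 2). Ccne1 was higher in replicate 1 and Ccne2 in replicate 2, and the ratio of Ccne2 to Ccne1 was 1.05 (0.984 to 1.12) in replicate 1 and 2.08 (1.93 to 2.24) in replicate 2. Equal levels lay inside the interval of replicate 1 and outside that of replicate 2.

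The E cyclins together stood above the D cyclins together. Their sum was 215 TPM in replicate 1 and 224 TPM in replicate 2 (219 ± 6.66 TPM, SD, n = 2), which was 4.29 and 4.77 times the summed D cyclins. This sum was close between the libraries, while the part of Ccne1 in it was 48.8% and 32.5%. Against Ccna2, the summed E cyclins stood at 0.447 and 0.525 of its level.

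Ccna2 (chromosome 3, 36564864 to 36571996, minus strand), the A cyclin of dividing somatic and stem cells, had 13170 and 9398 counts, or 481 and 427 TPM (454 ± 38.2 TPM, SD, n = 2), above 97.1% of the expressed genes. Ccnb1 (chromosome 13, 100778738 to 100786486, minus strand) had 10663 and 11489 counts, or 567 and 760 TPM (664 ± 136 TPM, SD, n = 2), above 98.3%. Ccnb1 exceeded Ccna2 by 1.18-fold (1.15 to 1.21) in replicate 1 and 1.78-fold (1.73 to 1.83) in replicate 2. With the deposited gene length, which spans introns, their order turned, with Ccna2 at 1205 TPM and Ccnb1 at 1120 TPM. The level of Ccnb1 is also uncertain because 42.1% of the 50-base words of its longest transcript occur in 6 pseudogenes, none of which the count table lists.

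Among the kinases, Cdk2 and Cdk4 were expressed well above Cdk6. Cdk2 (chromosome 10, 128697938 to 128705051, minus strand), the partner of cyclins E and A, had 2290 and 1033 counts, or 126 and 70.5 TPM (98.1 ± 39.0 TPM, SD, n = 2). Cdk4 (chromosome 10, 127063602 to 127067282, plus strand), a partner of the D cyclins, had 1233 and 484 counts, or 79.5 and 38.8 TPM (59.2 ± 28.8 TPM, SD, n = 2). Both were higher in replicate 1, beyond counting error. Cdk6 (chromosome 5, 3344311 to 3522225, plus strand), the other D cyclin kinase, had 444 and 356 counts, or 5.10 and 5.09 TPM (5.09 ± 0.00974 TPM, SD, n = 2), and lay above only 27.0% of the expressed genes. Its gene spans 177915 bp with 11525 bp of exons, and any fragments in introns were counted too. Its level therefore depends on the length chosen, as does that of Ccnd3, whose 94639 bp hold 2447 bp of exons. The authors describe the mRNA data of this line as holding very few reads from introns.

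Per exonic length, the ratio of Cdk2 to Cdk4 was 1.58 (1.48 to 1.70) in replicate 1 and 1.82 (1.63 to 2.03) in replicate 2, with overlapping intervals. With the deposited length Cdk2 and Cdk4 stood at 217 and 226 TPM in replicate 1 and at 129 and 116 TPM in replicate 2. Which of them was higher in replicate 1 therefore depends on the length. Per exonic length, Cdk4 stood 15.6-fold (14.0 to 17.4) above Cdk6 in replicate 1 and 7.63-fold (6.64 to 8.78) in replicate 2. The summed kinases came to 210 TPM (replicate 1) and 114 TPM (replicate 2), whereas the shares of Cdk2 (59.8% and 61.6%) and Cdk4 (37.8% and 33.9%) differed by less. Cdk6 made up 2.42% and 4.44%.

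**Figure D2:**
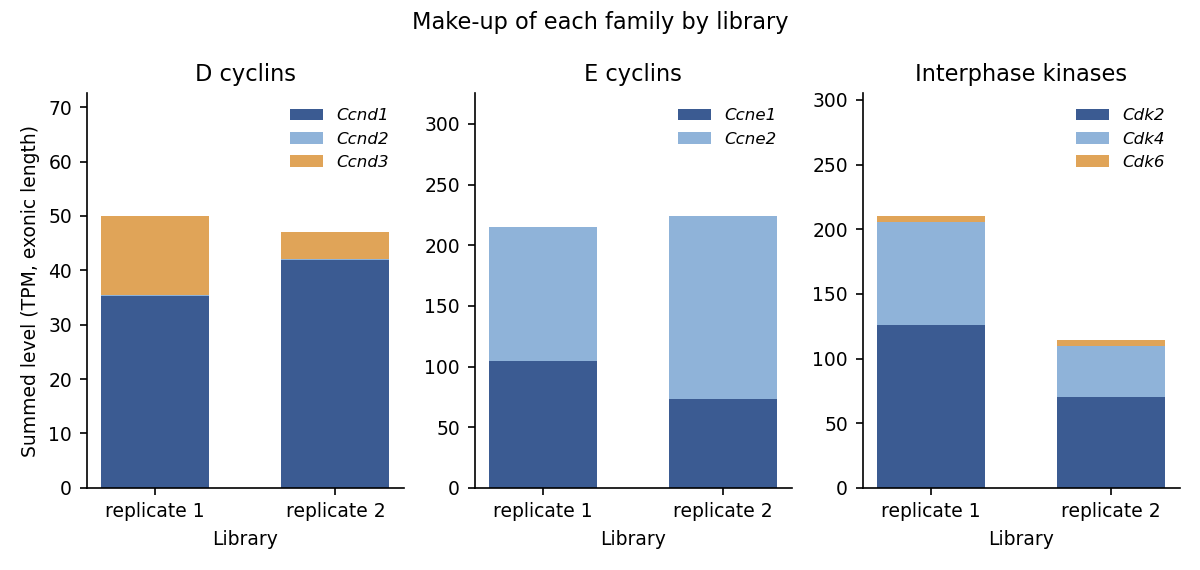
Summed level of the D cyclins, E cyclins and interphase kinases (TPM per exonic length, linear axes from 0 that differ between panels), each bar 1 library divided by gene. The D sums (50.0 and 47.0 TPM) and E sums (215 and 224 TPM) were close between libraries with a shifted make-up, and the kinase sum was 210 and 114 TPM.

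By mean level the order was Ccnb1, Ccna2, Ccne2, Cdk2, Ccne1, Cdk4, Ccnd1, Ccnd3, Cdk6 and Ccnd2. Of the 9 neighbouring pairs, 4 had replicate values that did not overlap, namely Ccnb1 over Ccna2, Ccna2 over Ccne2, Ccnd1 over Ccnd3 and Cdk6 over Ccnd2. The other 5 overlapped. Of these, Ccne1 stood above Cdk4 within each library, while Ccne2 and Cdk2, Cdk2 and Ccne1, Cdk4 and Ccnd1, and Ccnd3 and Cdk6 changed places between the libraries. With 2 values a gene, the smallest two-sided exact permutation p is 0.333, and no test of neighbours was made. With the deposited length only 2 members kept their rank. Ccna2 stood above Ccnb1, Cdk2 and Cdk4 stood above Ccne2 and Ccne1, and Ccnd3, at 1.31 TPM, stood below Cdk6 at 1.73 TPM.

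The libraries themselves differed widely. Replicate 1 held 23716499 counts and replicate 2 held 20275749. Each of the 14536 genes with 10 or more counts was tested against the ratio of these totals (two-sided exact binomial test, Benjamini-Hochberg threshold 0.05), and 8842 of them (60.8%) were called. Of these, 2202 (15.1% of genes tested) were higher and 6640 (45.7%) lower in replicate 2, and the median log2 ratio was -0.31. TMM and DESeq2 factors, which assume that most genes are equal, brought that median to -0.05 and 0.00, and genes higher in replicate 2 went from 24.9% of the calls to 49.9% and 54.8%. The difference also followed base composition, from a median log2 ratio of 0.51 in transcripts under 36% GC to -0.73 in those between 56% and 58% GC.

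Of the members, 8 of 10 were called, against 60.8% of all genes tested, with 3 higher and 5 lower in replicate 2 and a median log2 ratio of -0.21. The higher 3 were Ccnd1, Ccne2 and Ccnb1, and the lower 5 were Ccnd3, Ccne1, Ccna2, Cdk2 and Cdk4. TMM factors gave 3 higher and 4 lower, and DESeq2 factors 4 higher and 4 lower, Ccna2 being the member that changed. Beside a background in which most genes were called, this count is not a result about the cyclins as a group.

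The largest change was that of Ccnd3, at 0.321 of its replicate 1 CPM in replicate 2 (95% interval 0.244 to 0.416; exact binomial test, adjusted p = 2.54e-20). Cdk4 stood at 0.459 (0.412 to 0.510; exact binomial test, adjusted p = 9.87e-51) and Cdk2 at 0.528 (0.490 to 0.568; exact binomial test, adjusted p = 4.80e-68). Ccne1 stood at 0.654 (0.601 to 0.710). These 4 were lower in replicate 2 under library totals, TMM and DESeq2 factors alike.

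Ccne2 stood at 1.29 of its replicate 1 CPM (1.23 to 1.37), Ccnb1 at 1.26 (1.23 to 1.29) and Ccnd1 at 1.12 (1.02 to 1.22; exact binomial test, adjusted p = 0.0263). Ccna2, at 0.835 (0.813 to 0.857), was lower with library totals, was not called with TMM factors (exact binomial test, adjusted p = 0.879) and was higher with DESeq2 factors (log2 ratio 0.05, exact binomial test, adjusted p = 0.0166). Its direction therefore rests on the scaling. Cdk6, at 0.938 (0.813 to 1.08), and Ccnd2, at 0.877 (0.251 to 2.88), were not called, and the interval of Ccnd2 is too wide at this depth to show a difference of the size seen in Ccnd3.

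Because the difference followed GC content, members are set beside their base composition. Coding sequence ranged from 39.8% GC in Ccne2 to 61.8% in Ccnd3. The lines that follow give 90 coding bases each of Ccne2, Ccnb1, Cdk4, Ccnd1 and Ccnd3, taken from the GENCODE M21 transcripts, 5′ to 3′ on the coding strand, with G and C in capitals. Each is the stretch closest in GC to its whole coding sequence, and the set spans the range of GC among members called in either direction. Of the 90 bases, 36, 43, 49, 53 and 56 are G or C, in that order. The trend of the libraries with GC was measured on the longest transcript, where Ccne2 holds 36.3%, Ccnb1 44.2%, Ccnd1 50.9%, Cdk4 53.3% and Ccnd3 58.4% GC, so that Ccnd1 and Cdk4 stand nearer each other than in coding sequence and in a different order. Of these 5, Ccne2, Ccnb1 and Ccnd1 were higher and Cdk4 and Ccnd3 lower in replicate 2. Of the members called with library totals but not printed, Ccna2 (46.1% GC), Cdk2 (49.4%) and Ccne1 (52.7%) were lower. Ccna2 and Cdk2 thus had less GC than Ccnd1, which was higher, so GC content did not sort the called members by direction. In the order printed, the stretches lie in chr4:11192870-11193040 (plus strand, across an exon junction), chr13:100785607-100785810 (minus strand, across an exon junction), chr10:127064269-127064358 (plus strand, within 1 exon), chr7:144939553-144939642 (minus strand, within 1 exon) and chr17:47593715-47593804 (plus strand, within 1 exon), all on GRCm38, the assembly of mm10.
Ccne2: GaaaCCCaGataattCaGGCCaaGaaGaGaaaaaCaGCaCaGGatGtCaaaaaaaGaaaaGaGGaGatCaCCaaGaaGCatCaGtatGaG
Ccnb1: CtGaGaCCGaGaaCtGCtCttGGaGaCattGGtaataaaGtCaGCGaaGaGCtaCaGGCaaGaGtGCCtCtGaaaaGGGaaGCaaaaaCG
Cdk4: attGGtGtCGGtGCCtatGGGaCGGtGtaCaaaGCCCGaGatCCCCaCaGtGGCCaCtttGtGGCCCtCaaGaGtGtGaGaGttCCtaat
Ccnd1: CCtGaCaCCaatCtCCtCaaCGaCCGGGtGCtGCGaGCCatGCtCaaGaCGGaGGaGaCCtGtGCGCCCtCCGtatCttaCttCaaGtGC
Ccnd3: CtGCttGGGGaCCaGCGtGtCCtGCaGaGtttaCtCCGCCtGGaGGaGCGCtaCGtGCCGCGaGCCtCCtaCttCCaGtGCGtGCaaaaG

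A GC trend fitted over 9698 genes was then used as the expected ratio in the same exact binomial test, which called 44.6% of all genes tested. Of the members 6 were called, 2 higher (Ccnd1 and Ccnb1) and 4 lower (Ccnd3, Ccna2, Cdk2 and Cdk4) in replicate 2. Ccne1, with 52.7% GC in its longest transcript, went from a log2 ratio of -0.61 to -0.03, and Ccne2, with 36.3% GC, from 0.37 to -0.00. The opposite differences of both E cyclins were thus of the size of the trend at their GC content, and neither was called against it (exact binomial test, adjusted p = 0.776 for Ccne1 and 1 for Ccne2).

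Other members stood off the trend. Relative to it the log2 ratio was -0.86 for Ccnd3, -0.54 for Cdk2, -0.50 for Cdk4 and -0.12 for Ccna2. Ccnd1 lay 0.64 above the trend, beside a ratio of 0.16 against library totals, since its transcript of 50.9% GC lies in a range whose median log2 ratio was -0.43. For Ccnb1 the log2 ratio was 0.33 on both scales. Why these genes differed between the libraries was not tested.

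**Figure D3:**
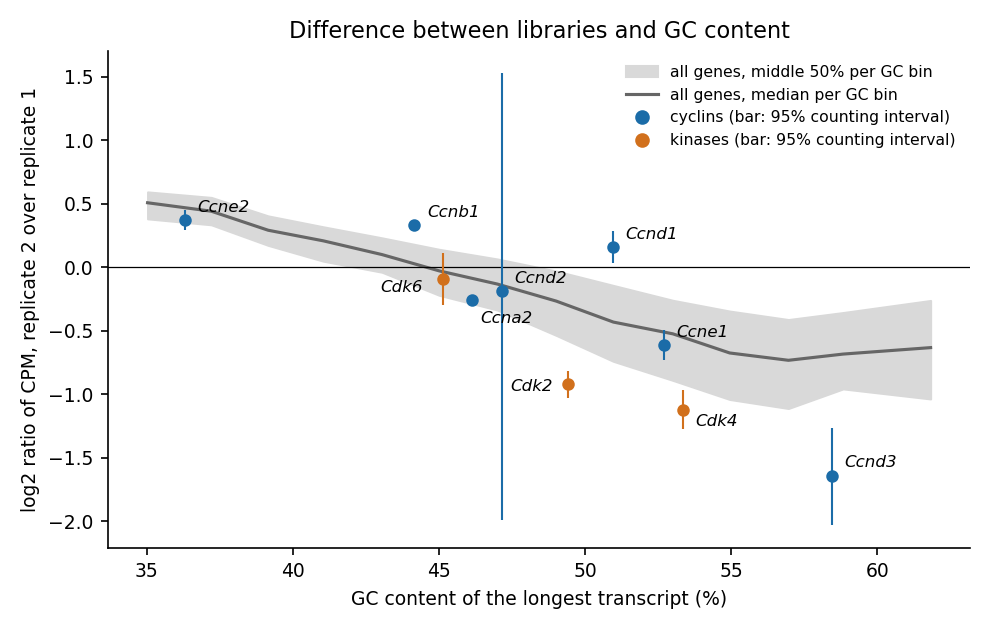
Log2 ratio of CPM, replicate 2 over replicate 1, against the GC content of the longest transcript, with the median and middle 50% of all genes per GC bin and the members as points with 95% counting intervals. Ccne1, Ccne2 and Ccna2 sit inside the middle 50% of genes of their GC, Ccnd1 and Ccnb1 above it, and Cdk2, Cdk4 and Ccnd3 below it.

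RefSeq promoter entries (GRCm38.p6) were matched for 6 members, Ccnd3, Ccne1, Ccnb1, Cdk2, Cdk4 and Cdk6. The 250 bases before the RefSeq start were searched on both strands for 5 motifs. For Cdk4 and Cdk6 this start lies upstream of the start given above from the count table. The motifs were CCAAT (the CCAAT box), GGGCGG (the GC box), TTTGAA (a form of the cell cycle homology region of mitotic genes), TTTNNCGC (a relaxed form of the E2F site) and TATAAA. They occur in 33.8%, 32.7%, 16.0%, 4.28% and 12.4% of 32851 promoters, in that order. Printed are Ccnb1, with the highest mean level of the 6, and Cdk6, with the lowest mean level per exonic length, although its order with Ccnd3 changed between the libraries. They are Ccnb1 (chr13:100786487-100786736, minus strand) and Cdk6 (chr5:3343643-3343892, plus strand), with matches on either strand in capitals.
Ccnb1: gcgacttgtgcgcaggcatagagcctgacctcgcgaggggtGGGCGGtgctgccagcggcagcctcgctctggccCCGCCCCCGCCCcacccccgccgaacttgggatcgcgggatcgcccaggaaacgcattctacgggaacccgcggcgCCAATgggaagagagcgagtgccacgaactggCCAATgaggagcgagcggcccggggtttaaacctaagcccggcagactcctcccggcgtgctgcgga
Cdk6: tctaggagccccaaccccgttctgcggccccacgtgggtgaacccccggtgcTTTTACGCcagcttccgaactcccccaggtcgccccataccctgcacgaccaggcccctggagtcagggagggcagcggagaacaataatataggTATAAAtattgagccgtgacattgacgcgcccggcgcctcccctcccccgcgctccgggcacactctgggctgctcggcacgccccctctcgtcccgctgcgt

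The Ccnb1 window, 69.6% GC, held 2 CCAAT and 3 GGGCGG matches and none of the other motifs as written. Other forms of these sites were not searched, so no match does not mean that a site is absent. The Cdk6 window, 66% GC, held 1 TTTNNCGC and 1 TATAAA match and none of the rest. GGGCGG matched in each of the other 4 members, and among them CCAAT in Cdk2 and TTTNNCGC in Cdk2. Ccnd3 has 2 entries, both with GGGCGG and 1 of them with CCAAT. The window with CCAAT (chr17:47593217-47593466) lies downstream of the gene start given above. A match describes letters in the window and not binding.

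The wider network of cyclins, kinases and their controls was read from 8 lists of 88 genes, of which 87 were in the table. The median level was 39.1 TPM, and 82 genes reached 1 TPM. Of 86 tested, 64 were called between the libraries, 24 higher and 40 lower in replicate 2, or 74.4% beside 60.8% of all genes, with a median log2 ratio of -0.18 beside -0.31 for all genes. TMM factors gave 36 higher and 24 lower, DESeq2 factors 40 and 21, and the GC trend 35 and 17. The first 2 shift every gene alike, so the number in each direction is set in part by the scaling. Of the regulators called, 37.5% were higher with library totals, 60% with TMM, 65.6% with DESeq2 factors and 67.3% with the GC trend, beside 24.9%, 49.9%, 54.8% and 51.3% of all genes called. The counts of single lists that follow are with library totals, where 15.1% of all genes were higher and 45.7% lower, and they describe these libraries rather than the lists.

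Among 6 other cell cycle cyclins, 1 was higher and 2 lower, against 2 and 1 with TMM, with DESeq2 factors and with the GC trend. Ccng1, cyclin G1, a target of p53, had the highest level, 985 and 1179 TPM, and Ccnb2, the second B cyclin, had 273 and 243 TPM. Ccnb2 was therefore below Ccnb1 in both libraries. Of 10 tested cyclins of transcription and related cyclins, 7 were higher and 2 lower (all genes: 15.1% and 45.7%), against 8 and 0 with the GC trend. The list was led by Ccnl1 at 479 ± 91.0 TPM (SD, n = 2), a cyclin tied to splicing, and Ccni at 438 ± 108 TPM (SD, n = 2), 17.3% of whose words occur in pseudogenes.

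Cdk1, the mitotic kinase that cyclin B1 activates, had 149 and 85.9 TPM (118 ± 44.6 TPM, SD, n = 2), near the level of Cdk2 and also higher in replicate 1. Against the GC trend its log2 ratio was -0.62, beside -0.54 for Cdk2 and -0.50 for Cdk4. Cdk7, the kinase of the CDK-activating complex, had 226 and 243 TPM and was not called. Of 18 other cyclin-dependent kinases tested, 6 were higher and 5 lower (all genes: 15.1% and 45.7%), against 6 and 1 with the GC trend. The highest were the transcriptional kinases Cdk8 (161 ± 15.8 TPM, SD, n = 2; 17.9% of words in pseudogenes) and Cdk12 (150 ± 27.9 TPM, SD, n = 2), in the opposite order with the length of the longest transcript (154 and 168 TPM).

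CDK inhibitors were the list with the lowest median, 9.04 TPM over 7 genes, of which 1 was higher and 3 lower. With TMM and with DESeq2 factors 2 were higher and 2 lower, and with the GC trend 3 and 0, so their direction rests on the scaling. Cdkn1b, which encodes p27, led with 70.7 and 104 TPM, followed by Cdkn1a, which encodes p21, with 16.9 and 13.2 TPM. The 8 genes of CDK phosphorylation and adaptors (2 higher and 5 lower, against 3 and 3 with the GC trend) were led by Cks2, a small CDK-binding subunit, at 1321 ± 266 TPM (SD, n = 2), with 29.7% of its words in pseudogenes, and by the inhibitory kinase Wee1 at 137 ± 11.3 TPM (SD, n = 2).

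Of 13 RB and E2F genes, 3 were higher and 7 lower (all genes: 15.1% and 45.7%), a balance that turned to 6 and 1 with TMM, 7 and 1 with DESeq2 factors and 8 and 1 with the GC trend. The highest were E2f5 (195 ± 22.6 TPM, SD, n = 2) and its partner Tfdp1 (180 ± 17.5 TPM, SD, n = 2; 27.1% of words in pseudogenes). The 21 cyclin degradation genes gave 3 higher and 15 lower (all genes: 15.1% and 45.7%), against 6 and 9 with TMM, 8 and 7 with DESeq2 factors and 5 and 9 with the GC trend. They were led by Skp1a, the linker subunit of SCF ubiquitin ligases, at 1875 ± 187 TPM (SD, n = 2), and by Fbxo5, the inhibitor of the anaphase-promoting complex, at 410 ± 51.6 TPM (SD, n = 2).

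**Figure D4:**
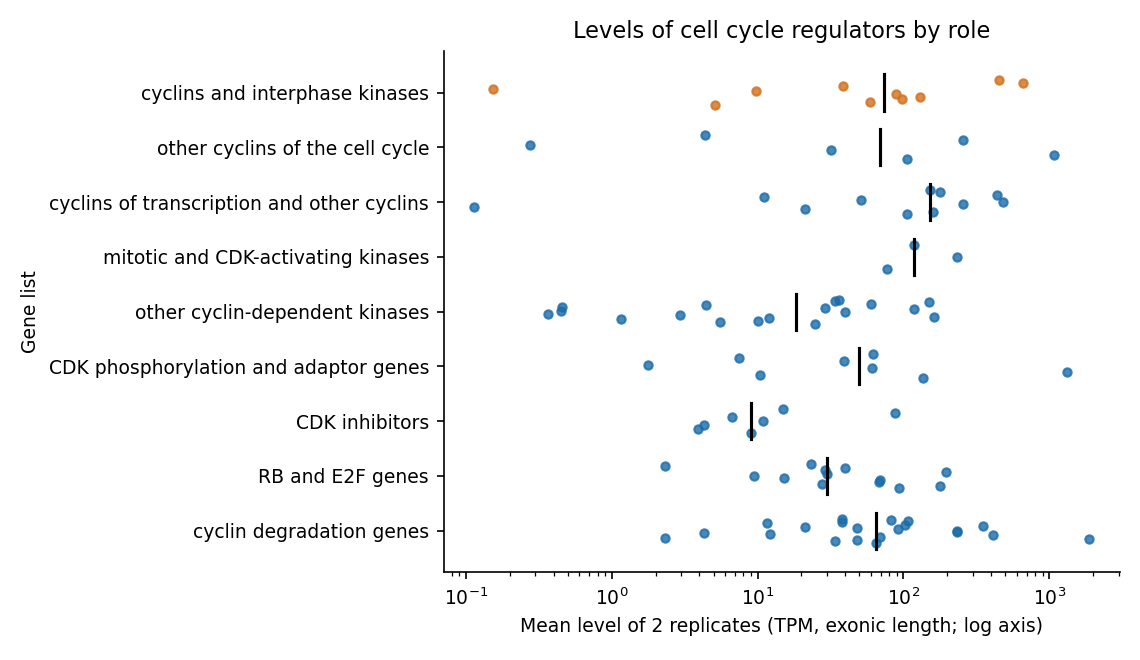
Mean level of 2 replicates (TPM per exonic length, log axis) for the members and for each of the 8 lists of regulators, 1 point a gene, with a line at the list median. Cyclins of transcription had the highest list median (152 TPM) and CDK inhibitors the lowest (9.04 TPM).

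Markers of the labelled cell type were present. Of 12 embryonic stem cell markers 11 reached 10 TPM, led by Tdgf1 (2272 ± 194 TPM, SD, n = 2) and Zfp42 (803 and 882 TPM), and their sum was 5379 TPM in replicate 1 and 4352 TPM in replicate 2. Of the 11 tested, 10 were lower in replicate 2 and 1 higher (all genes: 45.7% and 15.1%), against 6 and 3 with the GC trend, with a median log2 ratio of -0.31 against library totals, the same as over all genes. The differences among them were uneven. Pou5f1, Dppa5a and Esrrb, named here after their values were seen, had log2 ratios of -2.76 (1129 and 142 counts), -3.06 (2915 and 298 counts) and -1.24 (4325 and 1563 counts). Sox2 was listed at 0 in both libraries and lies inside Sox2ot on the same strand, where shared fragments may not have been assigned. Fibroblast feeder markers summed to 4.15 and 1.20 TPM, with 1 of 12 (Thy1) at or above 1 TPM, Pdgfra next at 0.394 TPM and Lum at 0 in both. Neural precursor markers, relevant since the labels describe the cell type as mESC to NPC, summed to 8.92 and 5.88 TPM with 2 of 8 at or above 1 TPM, led by Nes and Tubb3, and Sox1 was at 0 in both. Primitive endoderm markers summed to 15.9 and 15.6 TPM, with 3 of 6 at or above 1 TPM, led by Dab2 and Gata4. Their part in the differences between libraries was not tested.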

How the data were processed

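The authors deposited 1 table of counts, whole fragments per gene from 2 mRNA libraries. Per the file headers these counts came from featureCounts 1.5.2 in reverse-stranded mode over transcript features, so any fragments in introns were counted as well. The submitters' processing notes list mm10, Bowtie2 2.3.2 and STAR 2.4.2a. For chromatin-associated RNA libraries, the authors' methods name Bowtie2 for mapping reads to rRNA and STAR for aligning the rest. Whether this held for these mRNA libraries is not stated. Column names differ from the sample descriptions by a missing letter b and were matched by the remainder.

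TPM was computed here from the counts and the union of exons in the GENCODE M21 basic annotation, matched for 22192 genes (98.4%, 21337 by symbol and 855 by a RefSeq synonym). The deposited length equals the transcribed span with introns. The log2 ratio between libraries added 0.5 counts to each library. The two-sided exact binomial test with Benjamini-Hochberg adjustment used scipy 1.17.1, and TMM and DESeq2 factors came from edgeR 4.0.16 and DESeq2 1.42.0, used for scaling only, since 1 group leaves no contrast for a count model. The GC trend was a polynomial of degree 3 over 9698 genes that had 50 or more counts in both libraries. The test was checked on simulated data.

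Named genes were all 10 members, the 2 genes of each list with the highest mean TPM and those at 0 in both libraries, of which 1 marker is not reported here. Pou5f1, Dppa5a and Esrrb are named outside this rule, after their values were seen. Members and lists were chosen with earlier results of these data known. No gene was searched for by likeness of pattern to a member, because 2 libraries hold a single ratio per gene. Alternatives were other lengths, scalings and count minimums, and each replicate left out. Promoter entries for Ccnd1, Ccnd2, Ccne2 and Ccna2 were not used here.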

Additional observations from a re-analysis of the deposited data

How the results depend on the processing

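The median member level, 74.0 TPM, was 130 TPM with the deposited length and 56.2 to 92.2 TPM with 1 replicate left out. The number of members at an unchanged rank was 2 with the deposited length, 4 with CPM and 4 to 8 with 1 replicate left out, the lower number without replicate 1. With the deposited length, the log2 ratio of Ccnd1 to Ccnd2 went from 7.98 to 8.48, of Ccnd1 to Ccnd3 from 2.17 to 6.03, of Ccnd2 to Ccnd3 from -5.81 to -2.45, of Cdk2 to Cdk4 from 0.76 to 0.043 and of Cdk4 to Cdk6 from 3.45 to 6.55, and that of Ccna2 to Ccnb1 reversed from -0.54 to 0.13. Those shifts follow from the intron length that this column includes. With 1 replicate left out these ratios spanned 7.80 to 8.15, 1.27 to 3.07, -6.53 to -5.08, 0.66 to 0.86, 2.93 to 3.96 and -0.83 to -0.24, and Ccne1 to Ccne2 spanned -1.05 to -0.07. With 2 replicates, a mean without 1 of them always lies within 1 SD, so these ranges are no sign of stability. No paired analysis was possible because both libraries belong to 1 group. Depth limited Ccnd2 most.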
